A study of Mus musculus with 8 samples.

Results

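The genes described here are 43 members of the Wnt pathway in a deposited table of 24888 mouse genes, taken as the rows of a list of named symbols. All 43 had a row. The list holds 13 target and feedback genes of canonical Wnt signalling and 30 pathway parts, which are ligands, a ligand-processing enzyme, receptors, core components, transcription factors and antagonists. Levels were read in all 8 RNA sequencing libraries of the series, 1 library per group.

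The 8 libraries come from E14 mouse embryonic stem cells (ESC) and their derivatives. Type I and Type III blastoids, embryo models of the blastocyst grown from aggregated stem cells, were picked by hand on day 5 and are labelled as derived from expanded potential stem cells (EPSC) treated with T0901317 (T09). T09 is an agonist of the liver X receptors. The labels give no T09 dose or duration for these blastoids. The siNr1h2 and siNT libraries are day 2 blastoids, collected 48 hours after EPSC were transfected with an siRNA against Nr1h2, the gene of liver X receptor beta, or with a non-targeting siRNA. The other 4 libraries are EPSC with and without T09 and ESC with and without T09. The agonist was given for 3 days at a dose that the labels write as 1 uM/mL, which leaves the concentration unclear. EPSC were made from ESC over 5 passages.

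All 8 groups were in medium with 3 µM CHIR99021, an inhibitor of the kinase GSK3 that switches on beta-catenin signalling. EPSC medium, in which both EPSC libraries were grown, also held 5 µM XAV939, an inhibitor of tankyrase that stabilises Axin. ESC medium lists no XAV939, and neither do the blastoid media. EPSC and ESC media both held LIF and 1 µM PD0325901, a MEK inhibitor. EPSC medium further held 4 µM JNK inhibitor VIII, 10 µM SB203580 (a p38 inhibitor) and 0.3 µM A-419259 (a Src family inhibitor), and serum replacement in place of the serum of ESC medium. The complete blastoid medium held FGF4 at 12.5 ng/mL, BMP4 at 5 ng/mL and 0.5 µM A83-01, an inhibitor of TGF-beta type receptors. The effects of single agents cannot be told apart, since each medium differs from the others in several of them.

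In canonical Wnt signalling a secreted Wnt ligand binds a Frizzled receptor and the co-receptor LRP5 or LRP6, the complex of AXIN, APC and GSK3 stops marking beta-catenin for destruction, and beta-catenin joins TCF/LEF factors on target genes. Several targets act back on the pathway, among them Axin2 in the destruction complex and Rnf43 and Znrf3, ligases that remove Frizzled from the surface. In mouse ESC the pathway favours self-renewal, in large part by relieving repression by Tcf7l1, and in the early embryo it later takes part in forming the primitive streak and posterior body.

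Total counts per library ran from 24666260 to 40781415, and a count of 0 allowed a level of up to 0.0741 to 0.114 CPM, the count of a gene scaled to library depth with edgeR's TMM factors. The siNr1h2 library held Nr1h2 at 70.0% of the siNT level (95% interval 64.9 to 75.6%, counting error only). All 9 pluripotency markers were counted in every library, with a summed level of 842 to 1562 CPM on day 5, 2665 to 2731 CPM on day 2, 5131 to 5488 CPM in EPSC and 8023 to 8131 CPM in ESC. Primitive endoderm markers summed to 12894 to 22747 CPM on day 5, 3148 to 3329 CPM on day 2, 360 to 541 CPM in EPSC and 193 to 194 CPM in ESC. Trophectoderm markers summed to 2637 to 2863 CPM on day 5, 589 to 659 CPM on day 2 and 113 to 130 CPM in the 4 stem cell libraries. Dab2 is in both the primitive endoderm and the trophectoderm list, so these sums are not independent. In bulk RNA a change in the number of cells of a type cannot be told apart from a change in RNA per cell.

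The first comparison set EPSC against ESC. Target genes were lower in EPSC, several of them by over 10-fold, while the pathway parts moved in both directions. The core components among the members, Axin1, Apc, Gsk3b and Ctnnb1, differed little. Mesoderm markers, which include Wnt targets such as T, summed to 6.68 to 7.12 CPM in EPSC and 29.2 to 33.2 CPM in ESC. T, Mixl1, Tbx6 and Msgn1 had means of 1.15, 0.731, 0.627 and 0.374 CPM in ESC. Most of the ESC sum thus came from other genes of that list. Msgn1 was at 0 counts in both EPSC libraries and Mesp1 at 0 in untreated EPSC. Primitive endoderm markers summed to 360 to 541 CPM in EPSC and 193 to 194 CPM in ESC. The part of either marker list in the target levels was not tested. The 4 stem cell libraries were fitted with state and T09 treatment as terms in edgeR's quasi-likelihood test, with Benjamini-Hochberg adjustment over 14477 genes at 0.05. It tested 41 of the 43 members, since Lgr5 and Wnt3 had too few counts. Of the 41, 16 fell in EPSC, where 14.5% of all genes tested fell, and 5 rose, where 14.3% of all genes rose. Among 12 tested targets 9 fell and 0 rose, with a median log2 change of -1.74 against 0.00 for all genes tested. Among 29 tested pathway parts 7 fell and 5 rose, with a median of 0.04. Of the members that fell, 4 (Sp5, Nkx1-2, Rnf43 and Wnt11) had under 10 counts in both EPSC libraries and entered the test through the ESC libraries, so these counts and medians describe the tested members only. The 4 libraries give 1 residual degree of freedom beside a spread estimated over all genes, and the labels do not say whether they came from separate cultures, so the p-values measure the spread between these samples only.

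Axin2, the inducible Axin and the most widely used readout of the pathway, had 4.47 CPM in T09-treated and 3.85 CPM in untreated EPSC, against 43.9 CPM in T09-treated and 42.3 CPM in untreated ESC. Both EPSC libraries were far below both ESC libraries, and T09 made little difference within a state. The log2 change was -3.39 (SE 0.152), a 10.5-fold lower level, and edgeR's quasi-likelihood test gave a Benjamini-Hochberg adjusted p of 1.17e-06. Cdx1, a homeobox gene of the posterior embryo, had 0.741 and 0.445 CPM in T09-treated and untreated EPSC, against 111 and 87.6 CPM in T09-treated and untreated ESC. Its log2 change was -7.39 (SE 0.191), and the same edgeR test gave a Benjamini-Hochberg adjusted p of 1.52e-07. No other member with counts in all 4 libraries differed this far.

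A pair of transcription factor genes was at or near 0 in EPSC. Sp5, a zinc finger factor induced directly by Wnt signalling, had 3 counts in T09-treated and 0 counts in untreated EPSC, against 206 and 312 counts in T09-treated and untreated ESC. Untreated EPSC were thus at least 120-fold lower than untreated ESC, taking a floor of 3 counts in the library at 0. Between the T09-treated libraries the log2 ratio was -5.52 (95% counting interval -8.57 to -4.71). Nkx1-2, a homeobox gene of the posterior epiblast, had 0 counts in both EPSC libraries, against 545 counts in T09-treated and 391 counts in untreated ESC, which makes it at least 205-fold lower with T09 and at least 150-fold lower without. Both genes entered the edgeR test through the ESC libraries alone, so no p is given for them.

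The promoters of Nkx1-2, Sp5 and Axin2, which are 3 of the 4 targets with the largest fall in EPSC, are shown beside those of a pair of core components that did not pass the test. Each is the 250 bases before the RefSeq start on build GRCm38.p6, printed 5′ to 3′ on the gene's strand, and the deposited counts themselves were made on another build. They are chr2:70474673-70474922, plus strand, for Sp5, chr7:132599638-132599887, minus strand, for Nkx1-2, chr11:108920099-108920348, plus strand, for Axin2, chr9:120933150-120933399, plus strand, for Ctnnb1 (the upstream of its listed starts) and chr16:38088751-38089000, plus strand, for Gsk3b. Capitals mark a match to the TCF/LEF motif, searched on both strands as CTTTGAA with its variant CTTTGAT and as CTTTGTA with its variant CTTTGTT.
Sp5: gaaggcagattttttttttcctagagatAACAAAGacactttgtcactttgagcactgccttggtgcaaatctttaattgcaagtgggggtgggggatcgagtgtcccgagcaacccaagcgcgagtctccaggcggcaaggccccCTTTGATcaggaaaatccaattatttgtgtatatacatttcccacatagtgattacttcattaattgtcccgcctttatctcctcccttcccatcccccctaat
Nkx1-2: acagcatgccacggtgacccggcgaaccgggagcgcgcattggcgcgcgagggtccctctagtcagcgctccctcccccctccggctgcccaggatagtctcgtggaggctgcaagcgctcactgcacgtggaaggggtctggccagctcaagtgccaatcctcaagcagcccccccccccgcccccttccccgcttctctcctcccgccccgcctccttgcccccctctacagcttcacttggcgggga
Axin2: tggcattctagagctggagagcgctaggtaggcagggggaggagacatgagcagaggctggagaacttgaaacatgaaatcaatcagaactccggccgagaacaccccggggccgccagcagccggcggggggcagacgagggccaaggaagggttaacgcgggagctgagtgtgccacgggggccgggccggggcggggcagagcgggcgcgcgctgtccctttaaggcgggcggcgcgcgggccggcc
Ctnnb1: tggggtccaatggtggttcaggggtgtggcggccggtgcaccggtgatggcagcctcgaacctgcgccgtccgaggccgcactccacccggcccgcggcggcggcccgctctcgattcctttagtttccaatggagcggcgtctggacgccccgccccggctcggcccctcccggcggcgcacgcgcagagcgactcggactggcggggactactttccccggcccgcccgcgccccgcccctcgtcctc
Gsk3b: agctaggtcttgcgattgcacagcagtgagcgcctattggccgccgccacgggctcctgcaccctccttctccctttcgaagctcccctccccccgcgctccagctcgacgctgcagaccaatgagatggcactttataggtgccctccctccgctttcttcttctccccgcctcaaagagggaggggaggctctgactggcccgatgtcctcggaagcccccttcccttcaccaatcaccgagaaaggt

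The Sp5 window held 2 matches, CTTTGTT on the opposite strand starting 222 bases before the start and CTTTGAT on the gene's strand starting 104 bases before it. The other 4 windows shown held none. A window was at hand for 25 of the 43 members, and 6 of these members had a match in at least 1 window. They were 3 of 8 targets (Sp5, Dkk1 and Lef1) and 3 of 17 pathway parts (Fzd7, Tcf7l2 and Wnt11), and Dkk1 held 2 matches, CTTTGAA and CTTTGTT, 117 and 98 bases before its start. By window, 3 of 13 for targets and 3 of 20 for pathway parts held a match, 23.1% and 15.0%, beside 14.8% of 32851 mouse windows of the same length. A match describes the letters only, and a window without one does not bear on sites elsewhere.

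The other targets that fell changed less. Rnf43 had 5 and 8 counts in T09-treated and untreated EPSC, against 48 and 46 counts in T09-treated and untreated ESC, a log2 change of -3.04 (SE 0.594). Znrf3, its paralogue, had 20.5 and 17.8 CPM in T09-treated and untreated EPSC, against 27.6 and 29.2 CPM in T09-treated and untreated ESC, a log2 change of -0.58 (SE 0.141). Both ligases were lower in both EPSC libraries, Rnf43 by far the more. Apcdd1, a membrane protein that inhibits Wnt signalling, had 7.41 and 8.38 CPM in T09-treated and untreated EPSC, against 24.9 and 35.2 CPM in T09-treated and untreated ESC (log2 change -1.92, SE 0.161). Nkd1, an inhibitor that binds Dishevelled, had 1.26 and 1.39 CPM in T09-treated and untreated EPSC, against 4.21 and 3.53 CPM in T09-treated and untreated ESC (log2 change -1.55, SE 0.312). Tcf7, which encodes TCF1, had 25.3 CPM in each EPSC library, against 59.6 and 53.3 CPM in T09-treated and untreated ESC (log2 change -1.16, SE 0.132). For each of these 5 genes the EPSC libraries lay below both ESC libraries. The adjusted p in edgeR's quasi-likelihood test with Benjamini-Hochberg adjustment was 3.57e-05 for Apcdd1, 0.000214 for Tcf7, 0.00524 for Nkd1 and 0.0128 for Znrf3, and Rnf43, which also entered the test through the ESC libraries alone, is given none.

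The 3 tested targets that did not pass were Lef1, Dkk1 and Notum. Lef1, a TCF/LEF factor, had 0.865 and 1.44 CPM in T09-treated and untreated EPSC, against 0.251 and 1.15 CPM in T09-treated and untreated ESC, and its log2 change of 0.92 carried an SE of 0.536. Dkk1, a secreted inhibitor that binds LRP co-receptors, was at 0.568 to 0.759 CPM in EPSC and 0.837 to 1.36 CPM in ESC. Notum, an enzyme that removes the lipid that Wnt ligands need, had 28.6 and 32.2 CPM in T09-treated and untreated EPSC, against 34.7 and 23.5 CPM in T09-treated and untreated ESC. The Lef1 and Notum libraries of the states overlapped. Lgr5, an R-spondin receptor gene, had 2 counts in untreated EPSC and 0 in the other 3 stem cell libraries.

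**Figure D1:**
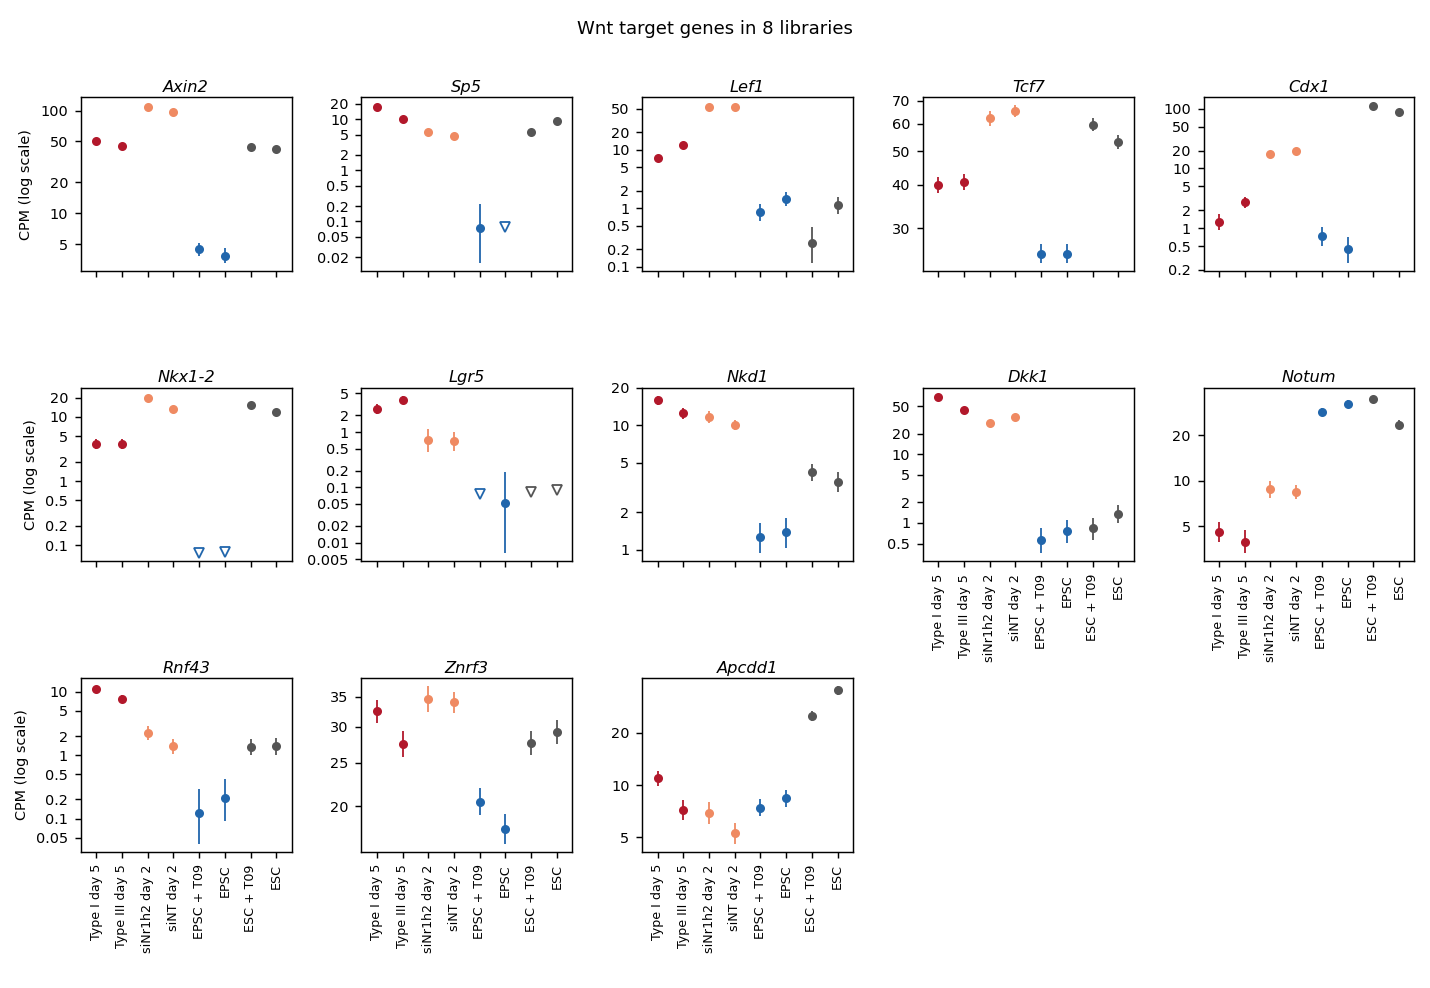
CPM of the 13 target genes on log axes in the 8 libraries, 1 point per library, with bars for the 95% exact interval of counting error and open triangles at the level that 0 counts allow. Axin2, Sp5, Cdx1, Nkx1-2, Nkd1, Rnf43, Tcf7 and Znrf3 are lower in both EPSC libraries than in both ESC libraries and all 4 blastoid libraries, and Notum is lower in blastoids than in all 4 stem cell libraries.

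Among ligands, Wnt3a and Wnt11 fell in EPSC. Wnt3a, a canonical ligand of the primitive streak and tailbud, had 0.544 and 0.707 CPM in T09-treated and untreated EPSC, against 4.66 and 3.92 CPM in T09-treated and untreated ESC, a log2 change of -2.79 (SE 0.351). Wnt11, a ligand best known for non-canonical signalling, had 7 counts in each EPSC library, against 81 and 53 counts in T09-treated and untreated ESC, a log2 change of -3.41 (SE 0.529). Both were lower in both EPSC libraries than in both ESC libraries. The adjusted p of Wnt3a was 0.000396 in edgeR's quasi-likelihood test with Benjamini-Hochberg adjustment, and none is given for Wnt11, which entered the test through the ESC libraries alone. The other 5 tested ligands did not pass, with log2 changes of 2.67 (SE 0.979) for Wnt5a, 1.72 (SE 0.717) for Wnt8a, 1.68 (SE 0.565) for Wnt7b, 1.14 (SE 0.45) for Wnt6 and -0.25 (SE 0.73) for Wnt4. Wnt5a and Wnt8a had under 10 counts in both ESC libraries. Wnt3 had 4 and 8 counts in T09-treated and untreated EPSC, against 7 and 18 counts in T09-treated and untreated ESC. Porcn, the enzyme that attaches the lipid to Wnt ligands, had 20.8 and 14.3 CPM in T09-treated and untreated EPSC, against 14.5 and 15.6 CPM in T09-treated and untreated ESC, and did not pass.

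Of 13 receptor genes 5 fell, 3 rose and 5 did not pass. Fzd7, a Frizzled of pluripotent cells, rose by 1.53 (SE 0.138) on the log2 scale, with 92.5 and 84.3 CPM in T09-treated and untreated EPSC, against 36.8 and 24.9 CPM in T09-treated and untreated ESC. Fzd10 had 24.0 CPM in each EPSC library, against 67.9 and 75.3 CPM in T09-treated and untreated ESC, a log2 change of -1.59 (SE 0.13). The Frizzled genes Fzd7 and Fzd10 thus moved in opposite directions, both without overlap of the libraries. Fzd8 fell by 1.44 (SE 0.293) and Fzd5 by 0.49 (SE 0.112), and Fzd3 rose by 0.63 (SE 0.198). The co-receptors Lrp5 and Lrp6 fell by 0.53 (SE 0.135) and 0.59 (SE 0.136), and the R-spondin receptor Lgr4 rose by 0.66 (SE 0.124). The adjusted p in edgeR's quasi-likelihood test with Benjamini-Hochberg adjustment was 3.11e-05 for Fzd10, 5.51e-05 for Fzd7, 0.00373 for Lgr4, 0.00555 for Fzd8, 0.01 for Lrp6, 0.0101 for Fzd5, 0.0159 for Lrp5 and 0.0392 for Fzd3. Fzd3 did not pass DESeq2, with an adjusted p of 0.13 on all counted genes and 0.126 on the genes that edgeR kept. Fzd1, Fzd2, Fzd4, Fzd6 and Fzd9 did not pass.

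The core components among the members did not pass in this test. Ctnnb1, which encodes beta-catenin, had 836 and 906 CPM in T09-treated and untreated EPSC, against 695 and 729 CPM in T09-treated and untreated ESC, a log2 change of 0.28 (SE 0.106). Axin1, the constitutive Axin, had 74.8 and 69.5 CPM in T09-treated and untreated EPSC, against 87.3 and 76.3 CPM in T09-treated and untreated ESC. The log2 change was -0.19 (SE 0.108) for Axin1, -0.30 (SE 0.129) for Apc and -0.33 (SE 0.112) for Gsk3b. Missing the threshold does not show equal levels, and the adjusted p was between 0.0526 for Gsk3b and 0.223 for Axin1 in edgeR's quasi-likelihood test with Benjamini-Hochberg adjustment. Gsk3b passed under DESeq2-type scaling and with no filter on low counts. Across all 8 libraries the highest level over the lowest was 1.26-fold for Axin1, 1.4-fold for Ctnnb1, 1.74-fold for Apc and 1.83-fold for Gsk3b, against 28.1-fold for Axin2.

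Of the factors and antagonists outside the target list, Tcf7l2 and Sfrp1 rose. Tcf7l2, which encodes TCF4, had 14.9 and 17.4 CPM in T09-treated and untreated EPSC, against 5.66 and 7.66 CPM in T09-treated and untreated ESC, a log2 change of 1.28 (SE 0.181). Sfrp1, a secreted protein that binds Wnt ligands, had 151 and 216 CPM in T09-treated and untreated EPSC, against 94.8 and 81.3 CPM in T09-treated and untreated ESC, a log2 change of 1.03 (SE 0.159). Both EPSC libraries were above both ESC libraries for these genes, with adjusted p of 0.000768 for Tcf7l2 and 0.0013 for Sfrp1 in edgeR's quasi-likelihood test with Benjamini-Hochberg adjustment. Tcf7l1, the TCF that mainly represses targets in ESC, had 157 and 172 CPM in T09-treated and untreated EPSC, against 119 and 146 CPM in T09-treated and untreated ESC, and did not pass, nor did Nkd2, an inhibitor related to Nkd1.

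**Figure D2:**
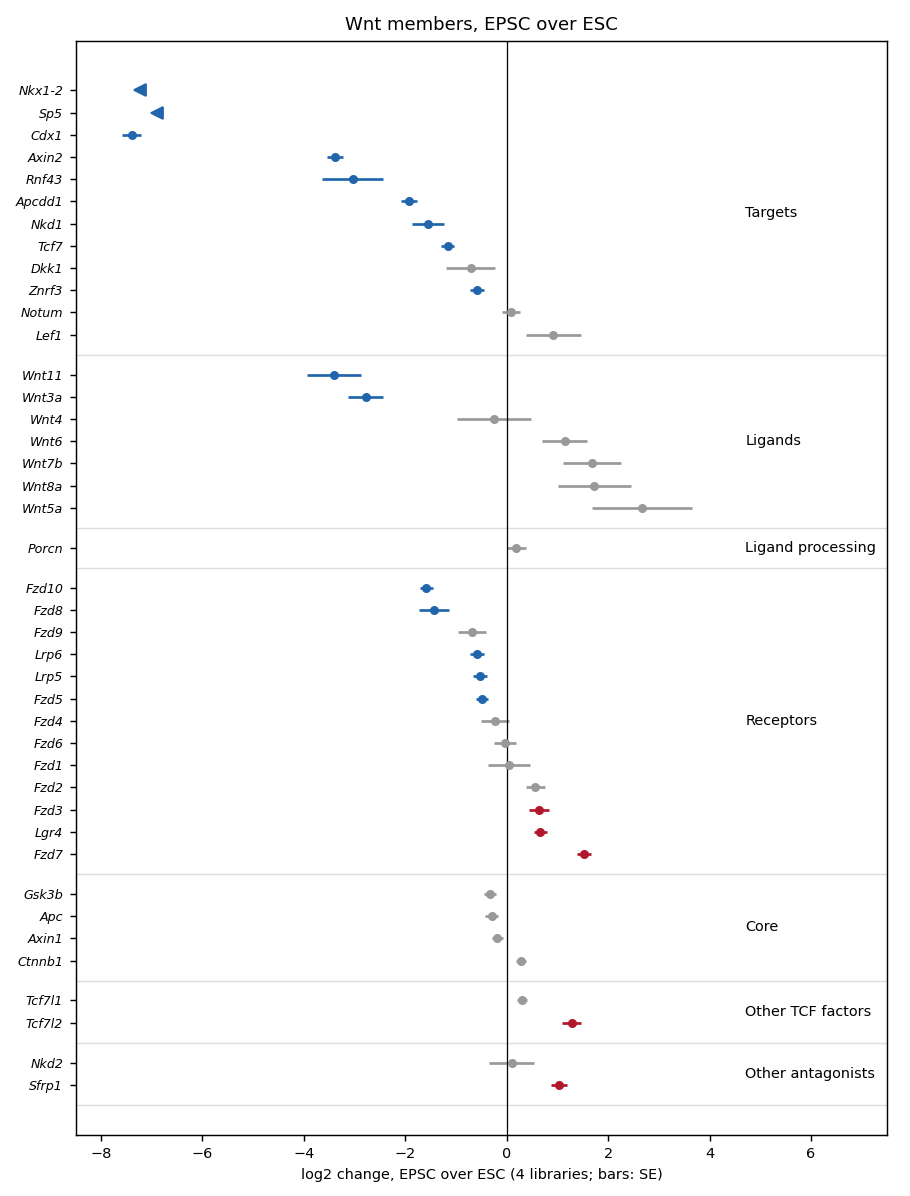
Log2 change of EPSC over ESC for the 41 tested members, by role, with bars of 1 SE from edgeR's quasi-likelihood fit, in blue for genes that fell, red for genes that rose and grey for genes that did not pass the adjusted threshold. Sp5 and Nkx1-2, at 0 counts in an EPSC library, are drawn as triangles at the least fold difference between the untreated libraries. The targets lie mostly left of 0, and the core components lie near it.

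A wider list of 76 other Wnt pathway genes had 60 tested, of which 13 fell and 8 rose in EPSC. These shares, 21.7% lower and 13.3% higher, stand beside 14.5% and 14.3% of all genes tested, so the share that rose was near that of all genes. The planar polarity list within it had 3 of 8 lower (Prickle2, Vangl1 and Vangl2), 1 higher (Celsr3) and 4 that did not pass. The 10 genes with the smallest p follow. Prickle2 fell by 3.44 (SE 0.242), the ligand Wnt5b by 3.61 (SE 0.312), its receptor Ror2 by 1.74 (SE 0.138) and Vangl2 by 0.72 (SE 0.155) on the log2 scale. Ror1, a related receptor outside the 10 and named after its values were seen, rose by 3.86 (SE 0.989), with a mean of 0.471 CPM in EPSC and 0.029 CPM in ESC, and entered the test through the EPSC libraries. Dvl2, which relays the signal from Frizzled, rose by 0.50 (SE 0.106). Further core genes outside the 10, named after their values were seen, passed in both directions. Csnk1a1 rose by 0.37 (SE 0.103) and Apc2 by 2.22 (SE 0.603), and Tnks fell by 0.64 (SE 0.161) and Dvl3 by 0.37 (SE 0.123). Among antagonists Sfrp2 rose by 1.97 (SE 0.171) and Cby1, which binds beta-catenin, by 0.74 (SE 0.135), and Wif1 fell by 3.22 (SE 0.788). Among further targets Cdx2 fell by 5.44 (SE 0.691), on 1 and 2 counts in T09-treated and untreated EPSC, and Tnfrsf19 fell by 0.85 (SE 0.175). Cdx2, and Wif1 with 1 and 7 counts in T09-treated and untreated EPSC, entered the test through the ESC libraries. Msgn1, also among the genes that fell, had a mean of 0 CPM in EPSC and entered the same way. Apc2, among those that rose, had 6 and 8 counts in T09-treated and untreated ESC and entered through the EPSC libraries. The shares of this list thus describe its tested genes only.

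No tested member passed in the comparison of T09 with untreated cells. In edgeR's quasi-likelihood test of T09 over untreated with Benjamini-Hochberg adjustment, 0 of 41 members passed, beside 0.104% of all genes tested, and 0 passed with limma-voom and DESeq2. At an unadjusted p under 0.05 there were 3, Lef1, Cdx1 and Fzd7, with log2 changes of -1.34 (SE 0.537), 0.41 (SE 0.163) and 0.34 (SE 0.136). Between single libraries, a member was called when its log2 ratio was at least 2-fold, its 95% exact interval excluded equality and 1 library had at least 20 counts. No p-value belongs to such a call, since each group is 1 library and the interval covers counting error only. T09-treated EPSC over untreated EPSC had 0 members higher and 2 lower, Wnt7b at -1.06 and Nkd2 at -1.17, beside 0.895% of genes higher and 3.29% lower. T09-treated ESC over untreated ESC had Wnt4 higher at 1.23 and Lef1 lower at -1.96, beside 1.39% of genes higher and 2.53% lower. By that same rule EPSC over ESC without T09 had 5 members higher and 12 lower, beside 9.58% and 8.05% of genes, and with T09 had 7 higher and 13 lower, beside 8.35% and 9.79%.

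Day 2 blastoids were set against untreated EPSC, the cell state from which they were made. In the siNT library targets were higher and the ligand genes were mostly higher. Of 43 members 22 were called higher, beside 14.5% of all genes tested, and 8 were called lower, beside 11.3%. Targets made up 10 of those higher and 1 of those lower, with a median log2 ratio over the 13 targets of 2.83 against -0.04 for all genes. Pathway parts were 12 higher and 7 lower of 30, with a median of 0.44. Axin2 stood at 95.8 CPM in siNT and 3.85 CPM in EPSC (log2 ratio 4.62, 95% counting interval 4.40 to 4.89). Lef1 stood at 53.1 CPM in siNT and 1.44 CPM in EPSC (5.16, 4.82 to 5.62). Dkk1 stood at 34.3 CPM in siNT and 0.759 CPM in EPSC (5.40, 4.97 to 6.08). These 3 genes were also higher in siNT than in ESC, by 1.18, 5.47 and 4.60 on the log2 scale.

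Cdx1 and Apcdd1 differed from that pattern. Cdx1 stood at 19.5 CPM in siNT and 0.445 CPM in EPSC, a log2 ratio of 5.30, but it was lower than in ESC, with a log2 ratio of -2.17. Apcdd1 stood at 5.28 CPM in siNT and 8.38 CPM in EPSC, a ratio of -0.66 that was not called, and was lower than in ESC at -2.72. Sp5 had 184 counts in siNT and 0 in EPSC, which is at least 59.5-fold higher, and Nkx1-2 had 515 and 0, at least 167-fold higher. Nkd1, Lgr5 and Rnf43 had log2 ratios of 2.82, 2.83 and 2.45, the Lgr5 ratio on 27 counts in siNT and 2 in EPSC (counting interval 1.72 to 6.83). Tcf7 was higher at 1.36, and Znrf3 at 0.93 was short of the 2-fold line. Notum was the target called lower, with 8.48 CPM in siNT and 32.2 CPM in EPSC. Over ESC, siNT had 18 of 43 members higher and 10 lower, beside 15.9% and 11.2% of genes, and 5 of 13 targets higher and 3 lower. The comparisons of siNT with EPSC and with ESC share the siNT library, and that of EPSC with ESC shares the untreated stem cell libraries with them.

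No member differed between the siNr1h2 and siNT libraries by the 2-fold rule. Of 42 members with enough counts, 0 were called higher, beside 1.49% of all genes, and 0 lower, beside 2.17%. Axin2 stood at 108 CPM in siNr1h2 and 95.8 CPM in siNT, Lef1 at 54.4 and 53.1 CPM in siNr1h2 and siNT, and Dkk1 at 28.5 and 34.3 CPM in siNr1h2 and siNT. The log2 ratios of the 42 ran from -0.52 to 0.74, and the highest were Tcf7l2 (0.74, 0.39 to 1.12) and Wnt7b (0.74, -0.01 to 1.61). At 1.5-fold 3 members were called. With 1 library each, the spread between cultures is unknown, so smaller effects of the siRNA were not detectable.

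On day 5 the targets stood above T09-treated EPSC as well. Type I had 21 of 43 members higher and 7 lower, beside 22.7% and 18.1% of all genes, and Type III had 21 higher and 5 lower, beside 21.7% and 16.0%. Of 13 targets 8 were higher in Type I and 9 in Type III, and Notum was the 1 target lower in each. The median log2 ratio over the 13 targets was 3.48 in Type I and 3.33 in Type III, against -0.03 and 0.00 for all genes. Pathway parts had medians of 0.49 in Type I and 0.59 in Type III. Both comparisons use the T09-treated EPSC library.

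Dkk1 stood at 68.4 CPM in Type I and 43.8 CPM in Type III, against 0.568 CPM in T09-treated EPSC. Sp5 stood at 17.3 CPM in Type I and 10.0 CPM in Type III, against 3 counts in T09-treated EPSC, with log2 ratios of 7.10 (6.31 to 10.15) and 6.29 (5.52 to 9.37). Rnf43 stood at 11.2 CPM in Type I and 7.73 CPM in Type III, against 5 counts in T09-treated EPSC. For all 3 genes the day 5 libraries were above both day 2 libraries and all 4 stem cell libraries. The margin was small for Sp5, since untreated ESC had 9.40 CPM and its counting interval overlapped that of Type III. Lgr5 had 93 counts in Type I and 126 in Type III, against 0 in T09-treated EPSC, which is at least 35.0-fold and at least 51.7-fold higher. Axin2, at 50.3 CPM in Type I and 45.6 CPM in Type III, was below both day 2 libraries and close to the ESC level. Nkx1-2 at 3.79 CPM in Type I and 3.77 CPM in Type III, and Cdx1 at 1.28 CPM in Type I and 2.71 CPM in Type III, were below day 2 and below ESC.

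Day 5 and day 2 thus differed in which targets were high. Type I over siNT had 11 of 42 members higher and 6 lower, beside 17.4% and 16.7% of all genes. Targets higher in Type I were Rnf43 (log2 ratio 2.98), Sp5 (1.88), Lgr5 (1.84) and Apcdd1 (1.04). Targets lower in Type I were Cdx1 (-3.87), Lef1 (-2.88) and Nkx1-2 (-1.77). Lef1 stood at 7.19 CPM in Type I and 12.0 CPM in Type III, against 54.4 CPM in siNr1h2 and 53.1 CPM in siNT. Day 5 and day 2 also differ in T09 history, in transfection and in picking by hand, and these cannot be told apart from the day.

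**Figure D3:**
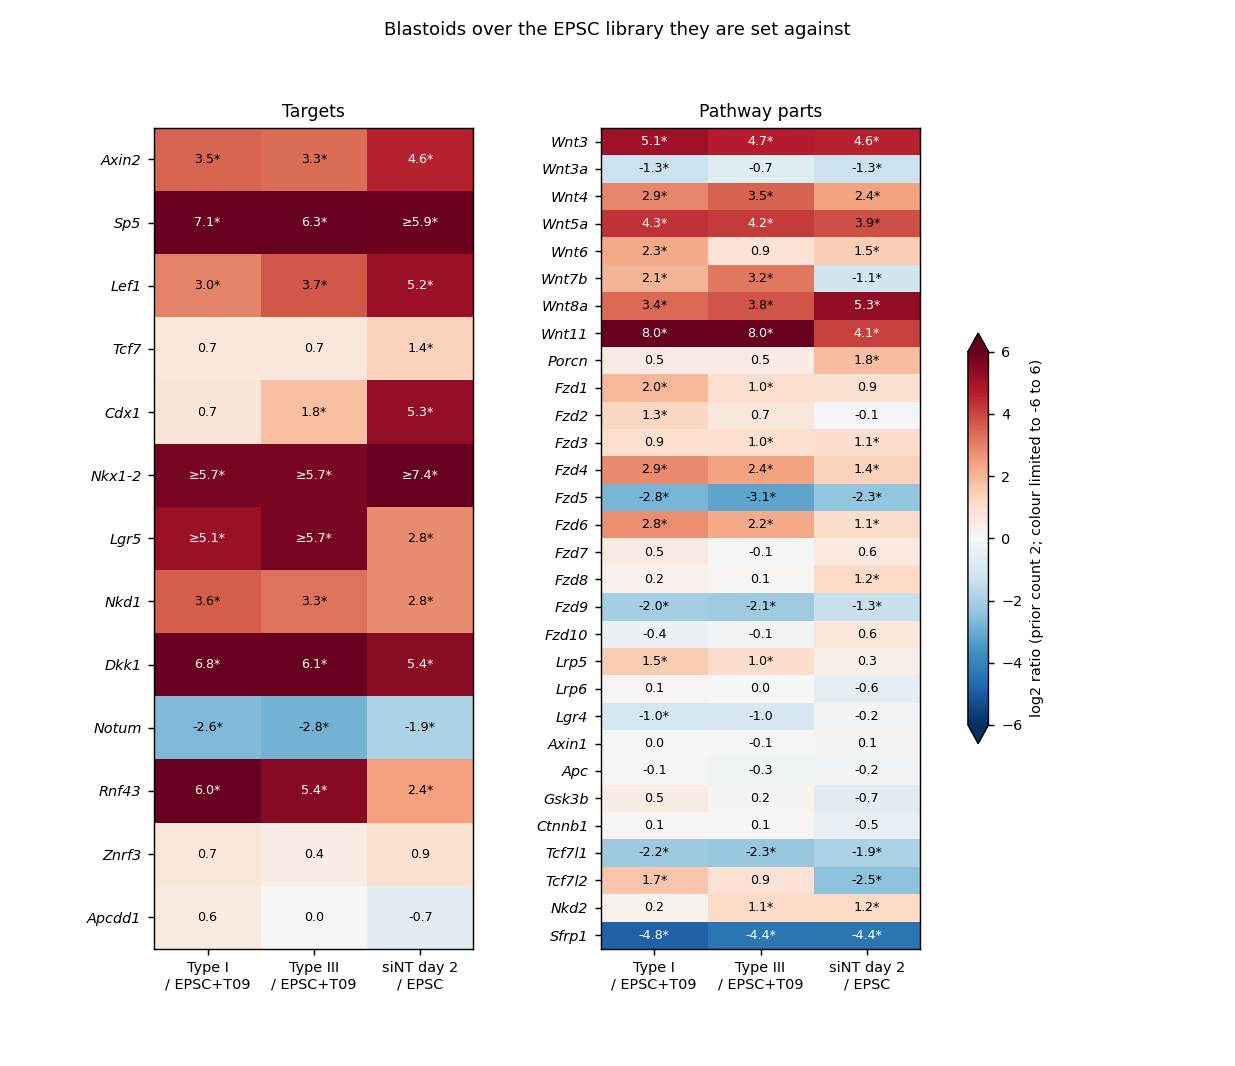
Log2 ratios of day 5 Type I and Type III over T09-treated EPSC and of day 2 siNT over untreated EPSC, for 13 targets and 30 pathway parts. An asterisk marks a ratio past the 2-fold rule, and a value after ≥ is a least ratio against 0 counts. Targets are mostly red in all 3 columns, and Sfrp1, Tcf7l1, Fzd5, Fzd9 and Notum are blue in all 3.

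The ligand genes were higher in sum in the blastoid libraries, and the gene with the largest share differed between stages. Per kilobase of exon, the 8 ligand genes summed to 27.9 CPM per kb in Type I and 26.7 in Type III, 17.7 in siNr1h2 and 18.2 in siNT, against 1.96 and 1.78 in T09-treated and untreated EPSC and 2.91 and 2.68 in T09-treated and untreated ESC. Among these 8 genes a different one led at each stage. In ESC Wnt3a made up 57.9% with and 52.9% without T09. In EPSC Wnt6, a ligand gene also expressed in extraembryonic lineages, made up 53.5% with and 38.2% without T09, of a sum that was small throughout. On day 2 Wnt8a, a canonical ligand of the posterior epiblast, made up 58.7% in siNr1h2 and 62.1% in siNT. On day 5 Wnt11 made up 50.8% in Type I and 53.5% in Type III. Over all 19 Wnt genes, a sum added after the values were seen, Wnt11 still had the largest share on day 5 (44.0% in Type I and 42.8% in Type III), Wnt8a on day 2 (38.3% in siNr1h2 and 39.8% in siNT) and Wnt6 in EPSC (41.5% with and 26.4% without T09). Wnt5b, which is outside the 8, followed Wnt8a on day 2 with 29.6% in siNr1h2 and 31.9% in siNT. In ESC Wnt5b led with 46.7% with and 43.5% without T09, above Wnt3a with 26.5% and 25.0%.

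Wnt11 stood at 58.6 CPM in Type I and 59.1 CPM in Type III, 4.50 CPM in siNr1h2 and 3.96 CPM in siNT, and 0.173 and 0.183 CPM in T09-treated and untreated EPSC. Its log2 ratio over T09-treated EPSC was 8.02 in both day 5 libraries, with counting intervals of 7.36 to 9.72 in Type I and 7.37 to 9.73 in Type III, and over siNT it was 3.87 in Type I. Wnt8a stood at 7.22 CPM in Type I, 9.61 CPM in Type III, 18.1 CPM in siNr1h2 and 19.7 CPM in siNT, against 0.642 and 0.445 CPM in T09-treated and untreated EPSC. Both genes were higher in every blastoid library than in every stem cell library, Wnt11 most on day 5 and Wnt8a most on day 2. Wnt3, a ligand of the posterior epiblast, stood at 5.10 CPM in Type I, 4.02 in Type III, 6.10 in siNr1h2 and 6.38 in siNT, against at most 0.543 CPM in the stem cell libraries. Wnt5a, the main non-canonical ligand, stood at 11.4 CPM in Type I, 10.4 in Type III, 8.05 in siNr1h2 and 8.46 in siNT, against at most 0.524 CPM in the stem cell libraries. Wnt4 was likewise highest in blastoids, at 1.83 to 3.68 CPM. Wnt3a and Wnt7b differed from this. Wnt3a stood at 0.195 to 0.343 CPM in blastoids, 0.544 to 0.707 CPM in EPSC and 3.92 to 4.66 CPM in ESC. Wnt7b stood at 3.04 CPM in Type I, 6.69 in Type III, 1.14 in siNr1h2 and 0.661 in siNT, against 0.692 and 1.49 CPM in T09-treated and untreated EPSC, so its day 2 and EPSC levels overlapped, and it was called lower in siNT than in untreated EPSC.

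Porcn was high on day 2, with 52.1 CPM in siNr1h2 and 50.9 CPM in siNT, and stood at 28.9 CPM in Type I and 29.3 CPM in Type III, against 14.3 to 20.8 CPM in the stem cell libraries. All 11 primitive endoderm markers were counted in every blastoid library. The summed levels of these markers and of the trophectoderm markers were each higher on day 5 than on day 2 and lowest in the stem cells. The lists are not separate, since these share Dab2, and the trophectoderm and mesoderm lists share Eomes. Mesoderm markers summed to 43.9 CPM in Type I and 73.0 CPM in Type III, 32.9 in siNr1h2 and 35.3 in siNT, against 6.68 to 7.12 in EPSC and 29.2 to 33.2 in ESC. Most of the day 5 sum was T, itself a Wnt target, with 24.7 CPM in Type I and 46.5 CPM in Type III. The part of these cell types in the ligand and target levels was not tested.

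**Figure D4:**
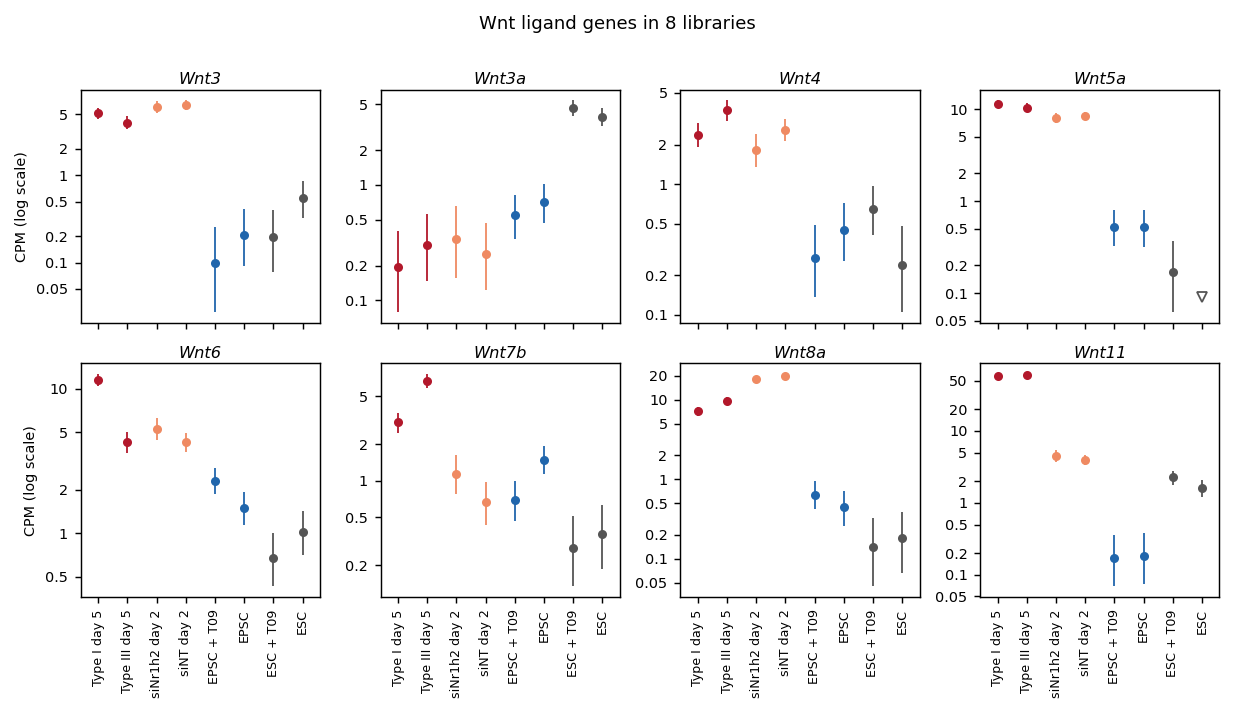
CPM of the 8 ligand genes on log axes in the 8 libraries, 1 point per library, with bars for the 95% exact interval of counting error and an open triangle at the level that 0 counts allow. Wnt11 peaks on day 5, Wnt8a on day 2, and Wnt3a is highest in ESC.

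The Frizzled receptors differed more in make-up than in summed level. The 10 genes summed to 43.5 to 71.0 CPM per kb over the 8 libraries, highest in T09-treated and untreated ESC at 69.9 and 71.0. Fzd10 made up 29.9% and 32.6% of the sum in T09-treated and untreated ESC, and 12.2% and 13.1% in T09-treated and untreated EPSC. Its share was 9.83% in Type I, 15.3% in Type III, 22.8% in siNr1h2 and 20.6% in siNT. Fzd5 made up 6.24% of the sum in Type I, 6.64% in Type III, 9.09% in siNr1h2 and 7.95% in siNT, against 42.3% and 38.7% in T09-treated and untreated EPSC and 46.0% and 47.7% in T09-treated and untreated ESC. Fzd7 made up 49.3%, 44.5%, 49.3% and 50.9% of the sum in Type I, Type III, siNr1h2 and siNT, against 33.6% and 32.9% in T09-treated and untreated EPSC and 11.6% and 7.73% in T09-treated and untreated ESC. Fzd5 led in all 4 stem cell libraries and Fzd7 in all 4 blastoid libraries, with the EPSC share of Fzd7 between those of ESC and blastoids. In CPM Fzd7 stood at 87.9 to 131 in blastoids, 84.3 to 92.5 in EPSC and 24.9 to 36.8 in ESC. The CPM levels of Fzd7 in EPSC and blastoids thus overlapped. In CPM Fzd5 stood at 20.0 to 33.4 in blastoids, 151 to 178 in EPSC and 222 to 234 in ESC.

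Several receptor genes of lower level were also higher in blastoids, while Fzd2, Fzd8 and Fzd9 were not higher throughout. Fzd6 stood at 35.9 CPM in Type I and 24.9 CPM in Type III, 11.8 CPM in siNr1h2 and 13.4 CPM in siNT, against 5.19 to 6.18 CPM in the stem cell libraries. Fzd4 stood at 16.8 CPM in Type I, 12.5 in Type III, 8.43 in siNr1h2 and 10.1 in siNT, against 2.27 to 3.88 CPM in the stem cell libraries. Fzd3 and Fzd1 were also above every stem cell library in all 4 blastoid libraries. For Fzd1 the counting intervals of Type III and untreated EPSC overlapped. Fzd9 was below, at 0.73 to 2.11 CPM in blastoids and 3.38 to 7.67 CPM in stem cells. Fzd8 stood at 3.41 to 4.73 CPM in blastoids, between EPSC at 2.04 to 3.09 CPM and ESC at 5.92 to 7.87 CPM. Fzd2 stood at 25.3 CPM in Type I, 17.1 in Type III, 8.28 in siNr1h2 and 10.0 in siNT. Each EPSC library had 10.5 CPM of Fzd2, and T09-treated and untreated ESC had 7.23 and 6.87 CPM. Lrp5 stood at 131 CPM in Type I and 95.5 CPM in Type III, above the 46.2 to 76.8 CPM of the other 6 libraries. Lrp6 and Lgr4 kept within a range of 1.99-fold and 2.05-fold over the 8 libraries.

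The TCF/LEF factors also shifted. Per kb, Tcf7l1 made up 28.9% of the 4 genes' sum in Type I, 29.3% in Type III, 27.7% in siNr1h2 and 27.4% in siNT, against 77.7% and 78.8% in T09-treated and untreated EPSC and 56.6% and 63.7% in T09-treated and untreated ESC. Tcf7 made up 50.4%, 54.9%, 56.2% and 57.8% in Type I, Type III, siNr1h2 and siNT, against 18.8% and 17.4% in T09-treated and untreated EPSC and 42.2% and 34.6% in T09-treated and untreated ESC. The gene with the largest share was thus Tcf7 in blastoids and Tcf7l1 in the stem cells, by the widest margin in EPSC. The remaining members took turns by day, Tcf7l2 with 17.9% in Type I and 10.9% in Type III, and Lef1 with 14.7% in siNr1h2 and 14.1% in siNT. The sum itself was lower on day 5, at 30.1 CPM per kb in Type I and 28.3 in Type III. It was 51.4 to 58.6 in the stem cells, with the day 2 sums between. In CPM Tcf7 stood at 39.9 in Type I, 40.8 in Type III, 62.2 in siNr1h2 and 65.2 in siNT. It stood at 25.3 in each EPSC library, and at 59.6 and 53.3 in T09-treated and untreated ESC. On day 5 Tcf7 was thus below both ESC libraries despite its larger share. In CPM Tcf7l1 stood at 32.6 to 46.2 in blastoids and 119 to 172 in stem cells. Tcf7l2 stood at 47.4 in Type I, 27.1 in Type III, 5.19 in siNr1h2 and 3.07 in siNT. Sfrp1, high in the stem cells at 81.3 to 216 CPM, stood at 5.18 to 10.4 CPM in blastoids.

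**Figure D5:**
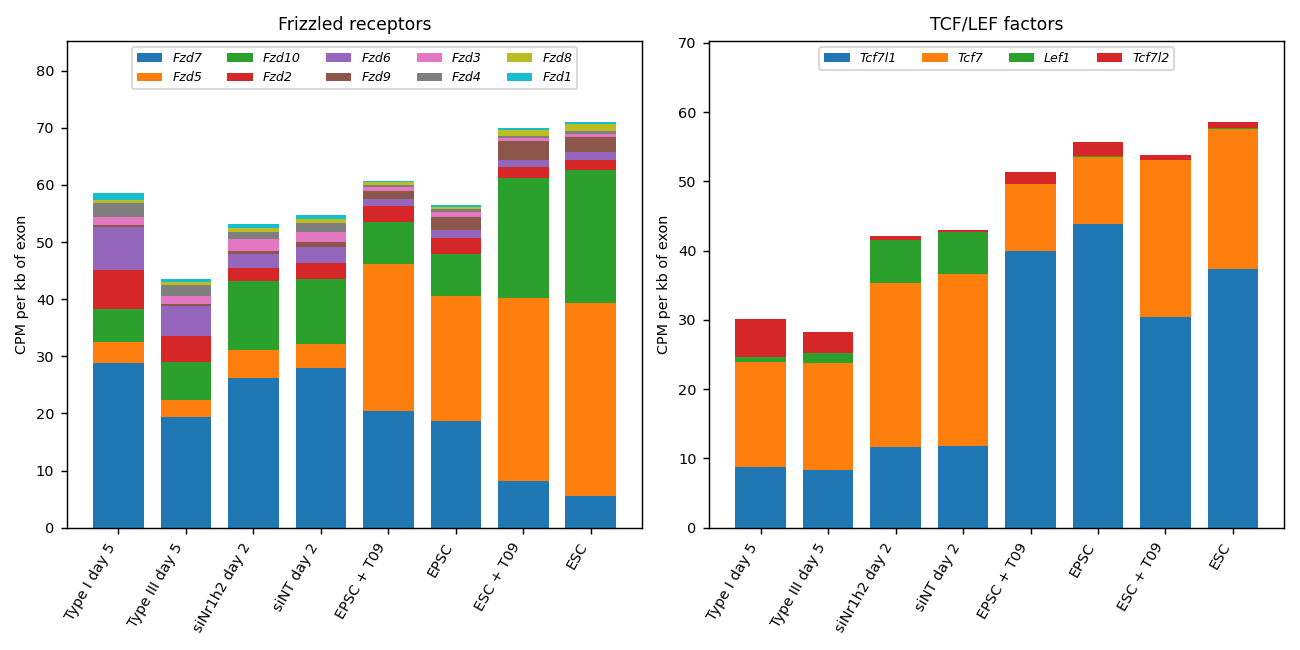
CPM per kb of exon of the 10 Frizzled genes and the 4 TCF/LEF genes, stacked by gene, in the 8 libraries. Fzd5 fills the largest part of the Frizzled bars in stem cells and Fzd7 in blastoids, and Tcf7l1 fills the largest part of the TCF/LEF bars in stem cells and Tcf7 in blastoids.

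Type I and Type III differed in few members. Type I had 2 of 42 higher, beside 1.93% of all genes, and 2 lower, beside 5.75%. Wnt6 stood at 11.5 CPM in Type I and 4.26 CPM in Type III, a log2 ratio of 1.41 (1.15 to 1.71), and Fzd1 at 4.65 CPM in Type I and 2.28 CPM in Type III, a ratio of 1.01 that just passes the 2-fold line. Wnt7b stood at 3.04 CPM in Type I and 6.69 CPM in Type III, a log2 ratio of -1.12 (-1.48 to -0.80), and Cdx1 at 1.28 CPM in Type I and 2.71 CPM in Type III, a ratio of -1.05 (-1.63 to -0.55). Primitive endoderm markers summed to 22747 CPM in Type I and 12894 CPM in Type III, and their part in these differences was not tested.

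Across the blastoid and stem cell libraries as groups, 16 of 43 members were higher in all 4 blastoid libraries than in all 4 stem cell libraries, beside 16.6% of all genes, and 6 were lower, beside 17.7%. The 16 were the targets Axin2, Lef1, Lgr5, Nkd1 and Dkk1, the ligands Wnt3, Wnt4, Wnt5a, Wnt6, Wnt8a and Wnt11, Porcn, and Fzd1, Fzd3, Fzd4 and Fzd6. For Axin2 the margin was small, with 45.6 CPM in Type III and 43.9 CPM in T09-treated ESC, and their counting intervals overlapped. The 6 were Notum, Wnt3a, Fzd5, Fzd9, Tcf7l1 and Sfrp1. Day 5 and day 2 did not overlap in 16 of 42 members that were higher on day 5, beside 40.2% of all genes, and 21 that were lower, beside 37.8%. Most genes do not overlap in this split of 4 libraries, so nothing is read from these counts about the members. Against the 2 EPSC libraries alone 24 members were higher without overlap, beside 23.8% of genes, and 7 lower, beside 26.7%, with 11 of 13 targets among the higher. Against the 2 ESC libraries alone 19 were higher, beside 25.2%, and 13 lower, beside 26.7%, with 5 of 13 targets higher and 3 lower.

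Of the other pathway genes 28.3% were higher and 16.7% lower in siNT over EPSC (17 and 10 of 60), beside 14.5% and 11.3% of all genes. In Type I over T09-treated EPSC 32.2% were higher and 22.0% lower (19 and 13 of 59), beside 22.7% and 18.1%, and in Type III over T09-treated EPSC 34.4% were higher and 21.3% lower (21 and 13 of 61), beside 21.7% and 16.0%. Wnt5b stood at 24.1 CPM in siNT and 0.419 CPM in EPSC, and T, the Brachyury gene of the primitive streak and a direct Wnt target, at 10.1 CPM in siNT and 0.157 CPM in EPSC. Cdx2, both a Wnt target and a trophectoderm factor, stood at 48.2 CPM in Type I and 30.9 CPM in Type III, against 1 count in T09-treated EPSC. Rspo3, which encodes an R-spondin that strengthens Wnt signalling, stood at 6.58 CPM in Type I and 8.09 CPM in Type III, against 1 count in T09-treated EPSC. Frzb, a secreted antagonist, stood at 37.1 CPM in Type I and 0.173 CPM in T09-treated EPSC. Sfrp2 and Celsr1 were lower on day 5, Sfrp2 at 4.60 CPM in Type I and 5.23 CPM in Type III against 26.3 CPM in T09-treated EPSC, and Celsr1, a polarity cadherin, at 8.92 CPM in Type I and 7.91 CPM in Type III against 41.2 CPM in T09-treated EPSC. T is in the mesoderm list and Cdx2 in the trophectoderm list too, and the part of those cell types in their levels was not tested.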

How the data were processed

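Raw counts per gene symbol were made and deposited by the authors as whole numbers. Per the submitters' processing notes STAR, Cuffnorm, HTSeq and build mm9 were used, and roles, versions, annotation and strand setting are not given in the sources used here. Exons of 11 members (Axin2, Ctnnb1, Fzd5, Fzd6, Lef1, Nkx1-2, Notum, Tcf7l1, Wnt11, Wnt5a and Wnt7b) overlap another gene in GENCODE M21, so their counts may be shared if strand was not used. There were 0 columns of no sample. Levels are CPM after TMM scaling (edgeR 4.0.16), and per-kb levels use the union of exons in GENCODE M21, which is not the authors' annotation. The fit was edgeR's quasi-likelihood test of state plus treatment after filterByExpr, with 1 residual degree of freedom, and SE is the size of the log2 change over the square root of F. Ratios of 2 libraries use a prior count of 2 and a 95% exact conditional (Clopper-Pearson) interval. Intervals and floors (3 counts per library) cover counting error only, because a molecule can give several reads and none carried a molecular identifier.

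On simulated data for EPSC over ESC with 14296 genes run, recovery was 92% for genes set to change 2-fold and 100% at 4-fold, with 15 false calls. The genes set to change all had a mean of at least 100 counts, and every gene was given the same spread (dispersion 0.0167). The recovery thus does not cover members with fewer counts, such as Rnf43, Dkk1 and Lef1. The members and lists were chosen with earlier results of these data known. Per-library values are given for members that passed the fit or were called in a 2-library comparison. Of the other pathway genes, up to 10 with the smallest p and up to 4 higher and 4 lower per blastoid comparison were named. Promoters are from RefSeq. Alternatives included library totals or DESeq2-type size factors, other count minimums, folds and prior counts, no filter, limma-voom (limma 3.58.1) and DESeq2 (1.42.0), of which DESeq2 on the genes kept by filterByExpr was added after seeing the data. No sample was left out.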

Additional observations from a re-analysis of the deposited data

How the results depend on the processing

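No paired analysis was possible because each group is 1 library and the labels carry no replicate numbers, and no replicate could be left out for the same reason. Of the settings that moved a count of called members by over 1.5 times, most changed the fold asked for. At 4-fold the members called were 9 in EPSC over ESC (17 at 2-fold), 7 with T09 in both (20), 0 in T09-treated over untreated EPSC (2), 0 in T09-treated over untreated ESC (2), 17 in siNT over EPSC (30), 13 in siNT over ESC (28), 0 in Type I over Type III (4) and 7 in Type I over siNT (17). At 1.5-fold they were 6 in T09-treated over untreated EPSC, 3 in siNr1h2 over siNT (0 at 2-fold), 11 in Type I over Type III and 28 in Type I over siNT. With a minimum of 100 counts they were 12 in T09-treated EPSC over T09-treated ESC and 0 in both comparisons of T09 with untreated, and with no minimum 4 in T09-treated over untreated ESC. With a prior count of 10 they were 1 in each comparison of T09 with untreated and 2 in Type I over Type III. Using the treated pair alone, 1 target (Lef1) was higher in EPSC over ESC, against 0 in the fit. Of single members in the fit, 118 values kept direction and side of the threshold, 5 came past it (Wnt5a and Wnt7b with limma-voom, Fzd2 with no filter, Gsk3b with DESeq2-type scaling and with no filter) and 2 lost it, both for Fzd3. Of single members in the 2-library comparisons 657 values stayed within the counting interval and 39 left it, 30 with a prior count of 10 and 9 with library totals. No value turned its direction. Library totals moved the median of all genes by 0.12 in siNT over ESC and -0.14 in Type I over siNT, on the log2 scale. Members under 20 counts in a library, such as Lgr5 and Wnt3 in stem cells, are limited by depth.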
